A study of Mus musculus with 2 samples.

Results

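The replication-dependent histone genes were taken as every gene in the expression table whose symbol has the older form of the clustered histone names, that is Hist, a cluster number from 1 to 4, the letter h and a type. This rule found 63 of 24091 genes, and it used no expression value. The members were 6 genes for the linker histone H1 and 17 for H2A, 17 for H2B, 10 for H3 and 13 for H4, the core histones. The large Hist1 cluster on mouse chromosome 13 held 52 of them, Hist2 on chromosome 3 held 8, Hist3 on chromosome 11 held 2 and Hist4 on chromosome 6 held 1.

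These genes supply the histones that wrap newly made DNA, so in dividing cells their messages accumulate in S phase and are destroyed when replication stops. Their messages are the known exception among animal mRNAs in that they normally end in a conserved stem-loop and not in a poly(A) tail. The stem-loop is bound by SLBP, and the U7 small nuclear RNP directs the cut just after it. Some members are also known to make polyadenylated messages, particularly in differentiated or non-dividing cells, from sites further downstream or from a spliced second exon. The libraries were made from poly(A) RNA, so a level given here is that of histone RNA recovered with such a selection and not the whole histone message of the cells.

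Both libraries came from gonadal adipose tissue of C57BL/6 mice, collected 2 months after the animals had been sham irradiated or had received pelvic radiation. The labels give 7.5 Gy for 5 days, without saying whether this dose was daily or total. The fat was dissociated with collagenase, and the floating fraction, described as mature adipocytes, was cultured for 3 days. The titles of both libraries name PBS, no other agent or allele is given, and neither the age nor the number of mice behind a library is stated. There was 1 library per condition. No test between the conditions could therefore be run, and every difference below is between 2 libraries without a replicate check.

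Fragment totals recovered from the table were 30580000 for the sham library and 35000000 for the irradiated library. Some genes listed as adipocyte markers were abundant, but the defining ones were not. Adiponectin (Adipoq) was at an FPKM, fragments per kilobase of transcript and 1000000 mapped fragments, of 0.133 and 0.232, and perilipin 1 (Plin1) at 0.254 and 0.478, while type I collagen (Col1a1) was at 1937 and 1428. Of 10 adipocyte markers 3 reached an FPKM of 1, namely Fabp4 (96.9 in both), Lpl (68.0 and 66.6) and Pnpla2 (5.11 and 5.76). The summed FPKM of the list, most of it from Fabp4 and Lpl, was 172.4 and 172.3. That of 8 fibroblast markers was 4362 in the sham and 3456 in the irradiated library. Of these 8, 5 were lower and 3 were higher in the irradiated library. The lower ones included the most abundant, Col1a1, together with Col3a1 (873 and 694) and Col1a2 (771 and 572). The higher ones were Thy1, with a difference of 0.4, and Dcn and Lum, with 0.01 each. Macrophage markers (7 genes) summed to 567 and 596, and 5 of them were higher in the irradiated library, with a median difference of 0.44, while the most abundant, Lyz2, had 443 and 410. Mesothelial markers (5 genes) summed to 27.2 and 34.0, and 4 were higher, with a median difference of 1.37 and 5.19-fold in Msln, while Wt1 had 20.4 and 18.7. Endothelial markers (5 genes) summed to 38.0 and 41.5. Of 4 epididymal markers none reached an FPKM of 1, with Cst11 and Lcn5 at 0. In bulk samples such as these, fewer cells of a type and less RNA per cell cannot be told apart, and the part of these markers in the histone values was not tested.

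The histone stem-loop has a consensus of 16 letters, some of which may be any base. It was searched for as DNA after the stop codon of the annotated transcripts of GENCODE M21, with up to 2 mismatches. The element was found in 41 members, without a mismatch in 37. It began 22 to 59 bases after the stop codon, with a median of 32 bases. An exact match, searched here over the whole transcript, was found in 3 of 58725 protein-coding transcripts of other genes, or 0.00511%. The sequences below are shown because they are the normal end signal of the message, for members that differed widely in level. Capitals mark the matched 16 letters, and 5 bases on each side are in lower case.
Hist1h1c: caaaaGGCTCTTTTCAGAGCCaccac
Hist1h4i: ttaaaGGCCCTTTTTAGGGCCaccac
Hist1h1e: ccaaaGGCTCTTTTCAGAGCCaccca
Hist1h2bj: ccaaaGGCTCTTTTCAGAGCCacgca
Hist1h3c: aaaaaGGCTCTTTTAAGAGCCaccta
Hist1h4b: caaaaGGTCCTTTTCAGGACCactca

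The stem of Hist1h4b carried 2 mismatches to the consensus. Its matched bases lay at chr13:23757366-23757381 on the plus strand of GRCm38. The bases of Hist1h1c lay at chr13:23739512-23739527 on the plus strand, and those of Hist1h4i at chr13:22040966-22040981 on the minus strand. In all 41 members the element lay inside the gene as deposited, and in 38 of them the deposited gene ended within 30 bases of it. In most members the values therefore count the coding part of the message and little of any tail beyond the stem-loop.

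Histone messages were scarce in both libraries. Of the 63 members, 58 stayed under an FPKM of 1 in both libraries, or 92.1%, against 53.3% of all genes (12838 genes). The 5 that reached it in at least 1 library were Hist1h1c, Hist1h2bc, Hist1h4i, Hist2h2be and Hist1h1e. The highest value among the rest was 0.928, in Hist1h2bg of the irradiated library. Over both libraries together, 8 members had no fragment, 31 had 1 to 9, 12 had 10 to 19, 8 had 20 to 49 and 4 had 50 or more. A gene of 1 kb would need an FPKM of 0.0981 in the sham and 0.0857 in the irradiated library to give 3 fragments, taken here as the floor for a count of 0.

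**Figure D1:**
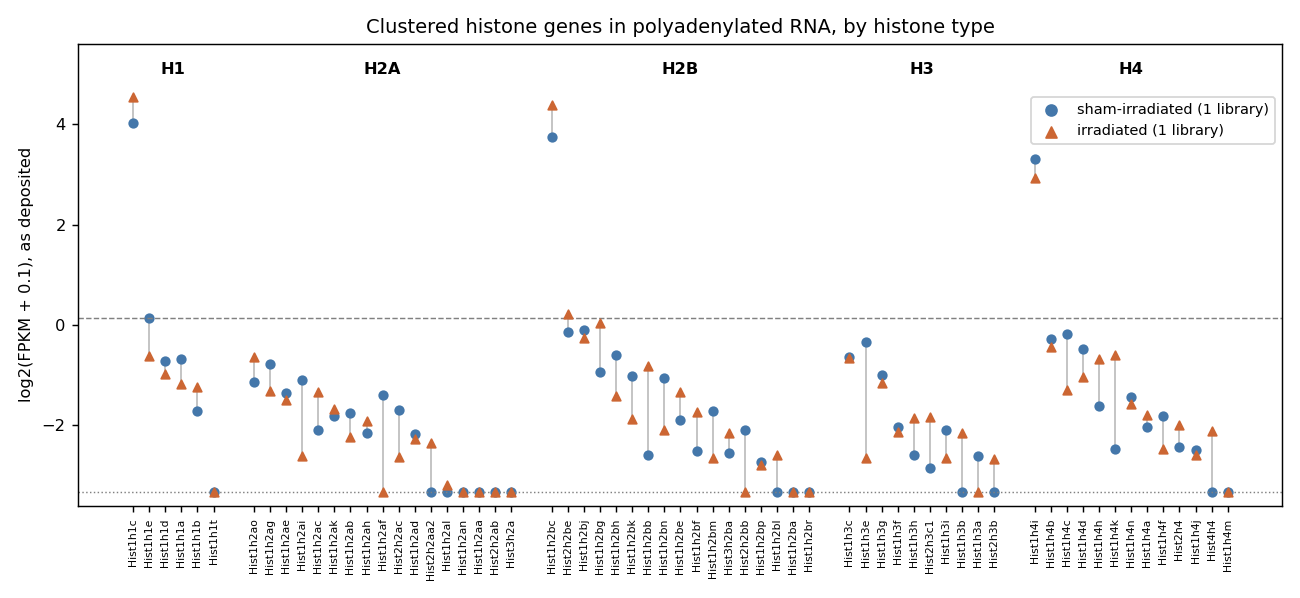
Level of each of the 63 members, by histone type, on the deposited log2(FPKM + 0.1) scale, with the sham and the irradiated library as separate points. Only a few members of H1, H2B and H4 stand above an FPKM of 1, and no member of H2A or H3 does.

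Within the family, a few members made up most of the signal. Hist1h1c held 32.6% of the member fragments in the sham and 36.3% in the irradiated library, and together with Hist1h2bc and Hist1h4i it held 72.1% and 77.3%. The same genes dominated their types. Hist1h1c held 87.1% and 93.1% of the H1 fragments, Hist1h2bc held 71.5% and 76.0% of the H2B fragments, and Hist1h4i held 75.5% and 69.1% of the H4 fragments. H2A and H3 had no such member above the filter, although they hold 27 genes between them.

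Summed over the members, fragments per 1000000 fragments of the library (FPM) were 35.8 in the sham library (95% Poisson interval 33.7 to 38.0) and 46.5 in the irradiated library (44.3 to 48.9). The log2 ratio of irradiated to sham was 0.38, with an exact (Clopper-Pearson) 95% counting interval of 0.27 to 0.49. Intervals of this kind cover counting error only, since fragments that passed through PCR without molecular identifiers are not independent molecules. The higher sum was not shared by the family as a whole. In the irradiated library 25 members were higher and 30 were lower, and the 8 with the same value had no fragment in either library. Some lower members had equal counts, such as Hist1h2bj with 11 fragments in each library. They were lower only through the greater depth of the irradiated library. The median difference was 0.00 over the 63 members and over all 24091 genes. Both medians fell on genes with the same value in both libraries, so their match says little. Of the 24091 genes, 6779 had no fragment in either library. Without the 4 members with most fragments, Hist1h1c, Hist1h2bc, Hist1h4i and Hist2h2be, the other 59 summed to 7.82 and 7.69 FPM, a log2 ratio of -0.02 (-0.28 to 0.23).

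The sums differed in direction between types. H2B had 14.3 FPM in the sham and 21.2 in the irradiated library, a log2 ratio of 0.57 (0.39 to 0.74). H1 had 13.4 and 18.1, a ratio of 0.44 (0.25 to 0.62). These are the types with an interval above 0, and each carried an abundant member that was higher in the irradiated library. H4 had 5.20 and 4.34 FPM, a log2 ratio of -0.26 (-0.59 to 0.07). H2A had 1.73 and 1.63, a ratio of -0.09 (-0.66 to 0.48), and H3 had 1.14 and 1.23, a ratio of 0.10 (-0.58 to 0.79). For these last types a difference was not detectable at this depth.

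**Figure D2:**
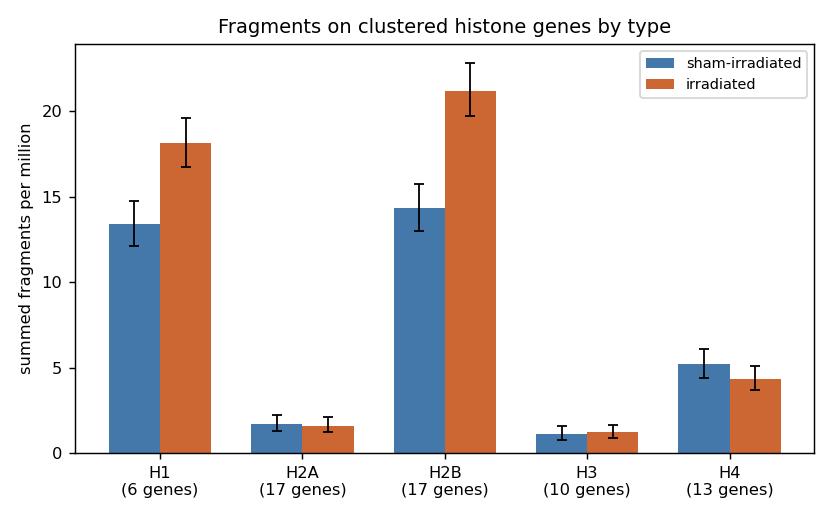
Summed FPM of each histone type in the sham and the irradiated library, with 95% Poisson intervals that cover counting error only. H2B and H1 are higher in the irradiated library, and the intervals of H2A, H3 and H4 overlap between the libraries.

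The linker histone H1 binds DNA where it enters and leaves the nucleosome. Hist1h1c, which encodes H1.2, lay at chr13:23738807-23739531 and was the most abundant member in both libraries. It had 357 fragments in the sham library, an FPKM of 16.1, and 591 in the irradiated library, an FPKM of 23.3. The difference was 0.53 on the log2(FPKM + 0.1) scale (counting interval of the log2 ratio 0.34 to 0.73). The other H1 members gave no such difference. Hist1h1e, which encodes H1.4, had an FPKM of 1.002 in the sham and 0.551 in the irradiated library, from 24 and 15 fragments, a difference of -0.76 (-1.91 to 0.12). Hist1h1d (H1.3) had 12 and 11 fragments, Hist1h1a (H1.1) had 12 and 9, and Hist1h1b (H1.5) had 5 and 9. The testis form Hist1h1t had none. Without Hist1h1c the H1 members summed to 53 fragments in the sham and 44 in the irradiated library, a log2 ratio of -0.46 (-1.07 to 0.14), the opposite direction to the type as a whole.

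H2B pairs with H2A in the outer dimers of the nucleosome. Hist1h2bc, at chr13:23684199-23692480, had 313 fragments in the sham and 564 in the irradiated library, at an FPKM of 13.3 and 20.9. Its difference of 0.65 (0.45 to 0.86) was the highest among the 5 members that reached an FPKM of 1. Hist2h2be, at chr3:96221072-96223738, had 66 and 100 fragments, at an FPKM of 0.807 and 1.07, a difference of 0.37 (-0.06 to 0.88). Both were higher in the irradiated library, but the interval of Hist2h2be spanned 0. Hist1h2bg had 6 and 15 fragments, a difference of 0.97 (-0.32 to 2.78). Hist1h2bj had 11 in each library and Hist1h2bh had 9 and 5. Without Hist1h2bc the other H2B members gave a log2 ratio of 0.32 (-0.02 to 0.66), from 125 and 178 fragments.

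H4 is the partner of H3 in the central tetramer, and its genes encode nearly identical proteins. Hist1h4i, at chr13:22040960-22041362 on the minus strand, was its one abundant member. It had 120 fragments in the sham and 105 in the irradiated library, at an FPKM of 9.75 and 7.47. The difference of -0.38 ran against those of Hist1h1c and Hist1h2bc. Its counting interval, -0.78 to 0.003, just reached 0. With library totals taken without the 100 most abundant genes, the interval lay below 0. Hist1h4b had 10 fragments in each library, Hist1h4c had 9 and 4, Hist1h4d had 7 and 5 and Hist1h4h had 3 and 8. Without Hist1h4i the type gave 39 and 47 fragments, a log2 ratio of 0.07.

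H2A and H3 members were near the detection floor. Hist1h2ao, the H2A member with most fragments, had 12 in the sham and 21 in the irradiated library, a difference of 0.50 (-0.48 to 1.77), and its deposited span takes in the H4 gene Hist1h4m on the same strand. Hist1h2ag had 7 and 5 fragments, Hist1h2ae had 5 in each, Hist1h2ac had 2 and 5 and Hist1h2ai had 5 and 1. Among H3 members, Hist1h3c had 8 and 9 fragments and Hist1h3g had 6 in each. Hist1h3e stood apart with 10 fragments in the sham and 1 in the irradiated library, a difference of -2.31 (interval of the log2 ratio -8.96 to -0.70). Hist1h3f had 4 in each and Hist1h3h had 1 and 3.

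Hist2h3c1 moved the other way, with 3 fragments in the sham and 16 in the irradiated library, a difference of 1.01 (0.42 to 4.64). It falls outside the rule for named genes and is given because of this value. Its row runs over chr3:96238479-96247348, and every 75-base window of its sequence also occurs in another gene, so its fragments cannot be assigned to 1 locus. Without it the H3 members had 32 and 27 fragments, a log2 ratio of -0.44.

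Members with germ cell roles were not seen. Hist1h1t, Hist1h2aa and Hist1h2ba, the testis forms of H1, H2A and H2B, had 0 fragments in both libraries. The other members without a fragment were Hist1h2an, Hist1h2br, Hist1h4m, Hist2h2ab and Hist3h2a, named here because no value was found for them. A count of 0 allows up to 3 fragments in each library, so it does not show that these genes were silent.

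No member that reached an FPKM of 1 differed by 1 or more on the log2(FPKM + 0.1) scale. Across the 11253 genes with such a level, 0.791% were higher by that much in the irradiated library and 0.373% were lower. With no filter on level, 5 members were higher by 1 or more, against 1.11% of all genes, and 6 were lower, against 0.614%. These members had few fragments. The higher ones were Hist1h2bb (1 and 8 fragments), Hist1h4k (1 and 8), Hist1h3b (0 and 2), Hist4h4 (0 and 2) and Hist2h3c1. The lower ones were Hist1h3e, Hist1h2ai, Hist1h4c, Hist1h2af (4 and 0), Hist1h2bn (5 and 2) and Hist2h2bb (2 and 0), and those not described above were named after their values were seen.

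The counting interval of the log2 ratio lay above 0 in 3 of the 55 members with at least 1 fragment, Hist1h1c, Hist1h2bc and Hist2h3c1. Over all genes with at least 1 fragment, 17.9% had an interval above 0. It lay below 0 in 1 member, Hist1h3e, against 12.2% of all such genes. Both shares among the members are under those of the table, but 51 of the 63 members had fewer than 20 fragments and could pass only with a very uneven split.

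**Figure D3:**
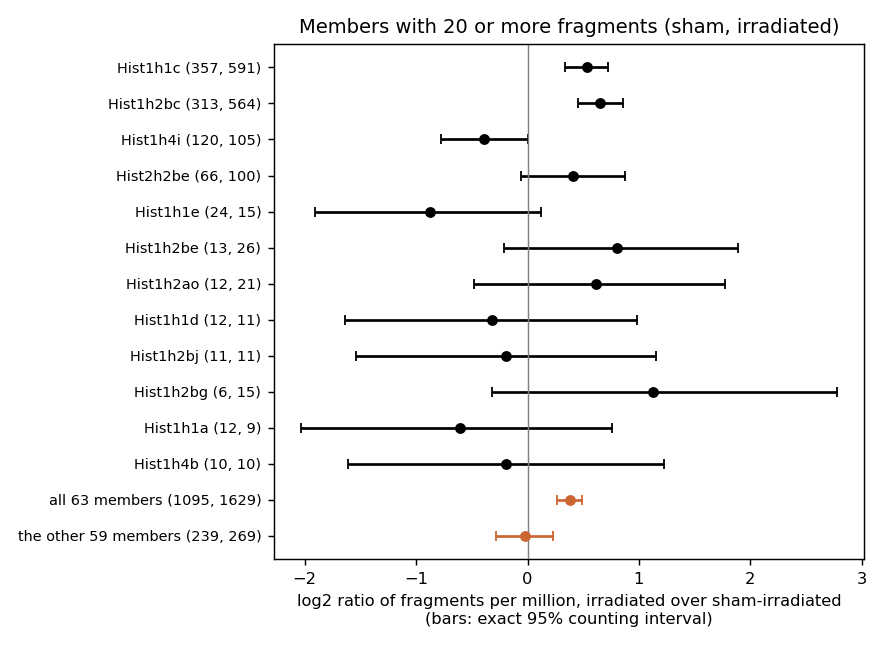
Log2 ratio of irradiated to sham fragments with exact 95% counting intervals for the members with 20 or more fragments over both libraries. Hist1h1c and Hist1h2bc lie above 0 with narrow intervals, Hist1h4i lies below with its upper end at 0, Hist2h2be lies above with its lower end just under 0, and the intervals of the other 8 also span 0.

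The members with most fragments were among those whose annotated messages run on past the usual end. In GENCODE M21 the transcript of 37 members ended within 100 bases of the stem-loop, or of the stop codon where no stem-loop was matched. None of these 37 had more than 33 fragments over both libraries, and together they gave 4.22 and 4.14 FPM in the sham and irradiated library, a log2 ratio of -0.03. A further 25 members had a transcript that ran 100 bases or more beyond that point, and they gave 31.6 and 42.4 FPM, a log2 ratio of 0.42. That ratio came from the 4 members with most fragments. Without them the other 21 had 110 and 123 fragments, or 3.60 and 3.51 FPM, a log2 ratio of -0.03. All 4 members with 50 or more fragments and all 5 that reached an FPKM of 1 were in this set. Fragments also rise with the length of a row. Hist2h2be, of 2.666 kb, had an FPKM of 0.81 and 1.07, and the short-ended Hist1h2bj, of 0.428 kb, had 0.84 and 0.74. A long annotated transcript did not go with a high count in general, since 21 of the 25 had fewer than 50 fragments and 3 had none. The 1 remaining member, Hist1h2al, had no coding transcript. Of the 17 short models with no stem-loop match, 13 stopped at the stop codon, so nothing beyond it could be searched. The grouping also takes no account of sequence shared with other genes, which is given below. Some short-ended members shared nearly all of their windows, such as Hist1h4n with 99.3%, and others such as Hist1h1a shared 0%. No test of this grouping was made.

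**Figure D4:**
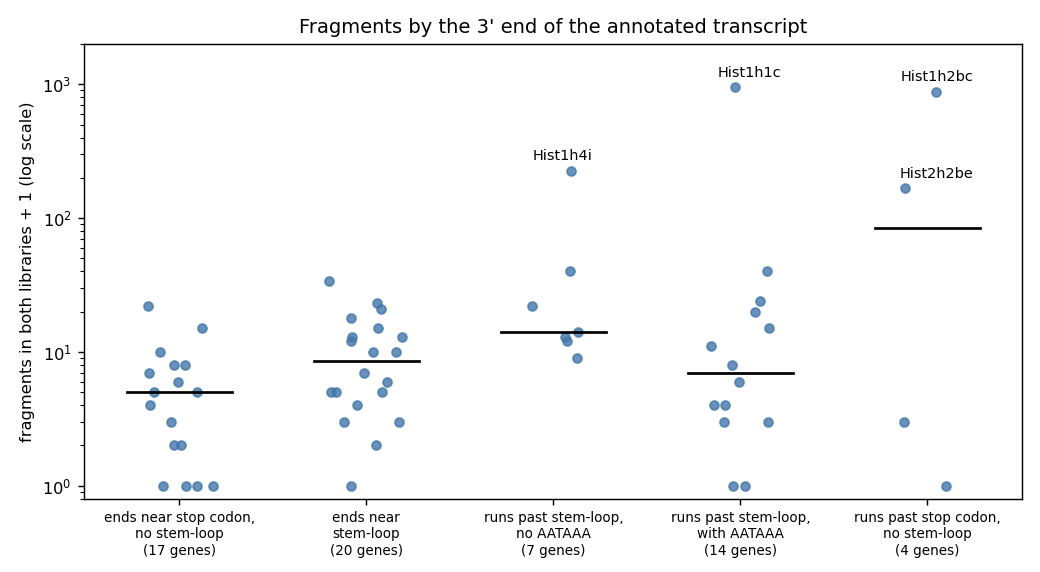
Fragments over both libraries for members grouped by how the annotated transcript ends, each point a gene. Members with short annotated ends do not exceed 33 fragments, and the points of 50 or more, Hist1h1c, Hist1h2bc, Hist1h4i and Hist2h2be, lie in groups with longer transcripts. Fragments are not corrected for gene length.

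The longer messages of the 5 members that reached an FPKM of 1 differed in kind. The Hist1h1c transcript ran 840 bases past its stem-loop and held the polyadenylation hexamer AATAAA 26 bases from its end. Of that tail, 836 bases lay outside the gene as deposited. The Hist1h4i transcript ran 330 bases past its stem-loop with no AATAAA, and the Hist1h1e transcript ran 1153 bases with none. Hist1h2bc had a second exon. Its first exon, chr13:23684199-23684621, ended 9 bases after the stop codon, nearer than the 22 bases at which the earliest stem-loop began, and an intron of 7554 bases separated it from the exon at chr13:23692176-23692908. Hist2h2be was a single exon of 2620 bases with 2192 bases after the stop codon, an AATAAA and no match to the stem-loop consensus.

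Sequence shared between histone genes limits how far a fragment can be placed. Of the 63 members, 28 shared the greater part of their 75-base windows with another gene, 7 shared none, and the median share was 48.0%. Hist2h2be shared 0%, Hist1h1c 15.2%, Hist1h4i 44.4% and Hist1h2bc 44.8%. Thus the values of Hist2h2be and Hist1h1c rest mostly on sequence of their own, and those of Hist1h4i and Hist1h2bc depend more on how shared reads were counted, and the sources used here do not state this. In 7 members the deposited row overlaps another GENCODE gene of the same strand. One of them is Hist1h2be, with 13 and 26 fragments, whose row overlaps the annotated tail of Hist1h1e but not Hist1h1e as deposited.

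Many H2A and H2B genes lie head to head and share the stretch between their start sites. There were 11 such neighbours among the members, 10 of them an H2A with an H2B gene, with gaps of 177 to 607 bases. Neighbours across a gap did not have like levels where one was abundant. Hist1h2ac had 2 fragments in the sham and 5 in the irradiated library, while Hist1h2bc on the other side of 239 bases had 313 and 564. Likewise Hist2h2ac had 3 and 1 while Hist2h2be, 191 bases away, had 66 and 100. The row of Hist2h2be is longer, at 2.666 kb against 0.467 kb. Per length the contrast was smaller, with an FPKM of 0.807 and 1.07 against 0.210 and 0.0615. In the other 8 pairs of H2A with H2B no gene had more than 15 fragments in a library.

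The gap between Hist1h2ac and Hist1h2bc and the 250 bases before Hist1h1c and Hist1h4i are printed because these genes carried most of the signal. The letters are those of the plus strand for the gap and of the gene's strand for the others, in GRCm38.p6 from RefSeq. Capitals mark motif matches on either strand, and none of the matches overlap in these stretches. The motifs searched were the CCAAT box, spelled CCAAT, and the TATA box, spelled TATAAA. The octamer was spelled ATTTGCAT. The H1 box was spelled AAACACA. Matches were taken at any position, so a TATAAA need not be a TATA box. That of Hist1h4i began at base 114 of the 250.
Gap between Hist1h2ac and Hist1h2bc, chr13:23683960-23684198: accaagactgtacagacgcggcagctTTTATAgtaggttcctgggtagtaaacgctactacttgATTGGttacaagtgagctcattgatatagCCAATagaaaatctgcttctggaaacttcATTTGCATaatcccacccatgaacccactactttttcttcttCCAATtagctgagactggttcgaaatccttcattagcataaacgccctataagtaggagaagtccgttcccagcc
Upstream of Hist1h1c, chr13:23738557-23738806, plus strand: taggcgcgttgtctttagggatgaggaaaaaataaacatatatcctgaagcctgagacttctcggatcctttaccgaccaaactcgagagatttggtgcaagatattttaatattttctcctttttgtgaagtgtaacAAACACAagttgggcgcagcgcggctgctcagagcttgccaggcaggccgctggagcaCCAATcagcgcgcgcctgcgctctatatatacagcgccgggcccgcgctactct
Upstream of Hist1h4i, chr13:22041363-22041612, minus strand: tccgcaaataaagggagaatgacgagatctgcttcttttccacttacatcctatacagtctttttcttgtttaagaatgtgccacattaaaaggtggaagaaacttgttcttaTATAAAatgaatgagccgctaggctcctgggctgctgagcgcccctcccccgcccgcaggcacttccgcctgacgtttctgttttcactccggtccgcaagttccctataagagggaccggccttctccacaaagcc

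The promoter motifs differed by histone type. Of the 63 members, 57 had an entry among the RefSeq promoters, windows of 300 bases with 250 before the start and 50 after it. Hist1h2bc and Hist2h2be had none. A member was counted where any of its windows matched, while the share over all promoters is per window. CCAAT was counted in all 45 H1, H2A, H2B and H3 members and in 3 of 12 H4 members, against 37.4% of all 32851 promoters. The octamer was counted in 7 of 16 H2A and 7 of 15 H2B members and in none of the other types, against 1.74% of all promoters. Head-to-head genes share part of these windows. The H1 box was counted in 5 of 6 H1 members, against 7.18% of all promoters. TATAAA stood in 33 of the 57, against 13.6% of all. A match of letters is a description and not evidence of a bound factor.

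The histone genes listed here as replication-independent were far more abundant in this RNA, except for H1. Most of these genes are known to make polyadenylated messages. The 6 replication-independent H2A genes had a summed FPKM of 231 in the sham and 203 in the irradiated library, against 2.75 and 2.23 for the 17 clustered H2A members, which were thus 1.18% and 1.09% of the H2A total. For H3, H3f3a, H3f3b and Cenpa summed to 275 and 266, against 2.09 and 1.67 for the members, or 0.755% and 0.625% of the total. For H1, H1f0 and H1fx summed to 33.1 and 34.2 against 18.4 and 25.0, so that the members held 35.7% of the H1 total in the sham and 42.2% in the irradiated library. Hist1h1c accounts for most of that share.

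**Figure D5:**
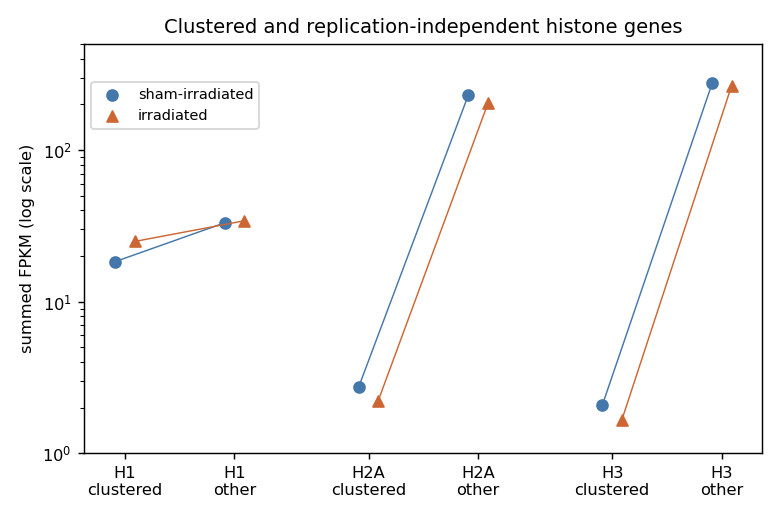
Summed FPKM of the clustered members and of the replication-independent genes of H1, H2A and H3 in each library. Clustered H2A and H3 members are about 1% or less of their totals, and clustered H1 members are 35.7% and 42.2%.

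Of the 11 replication-independent histone genes, 2 were higher and 9 were lower in the irradiated library, with a median difference of -0.09. The median over the 11253 genes with an FPKM of 1 or more in at least 1 library was 0.02. H2afz, which encodes H2A.Z, had an FPKM of 151 in the sham and 126 in the irradiated library, a difference of -0.26 (-0.32 to -0.20). H2afj, an H2A variant gene, had 7.11 and 8.41, a difference of 0.24 (0.05 to 0.43). H2afx, which encodes the variant phosphorylated at DNA breaks, differed by -0.09 and H3f3a by -0.09. H3f3b differed by -0.02 and H1f0 by 0.09.

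Genes that make, cut and destroy histone messages were detected in both libraries. Of 16 genes for histone gene transcription and 3′ end processing, 15 had an FPKM of at least 1 in a library, with a median difference of -0.06, and the counting interval lay below 0 in 3 of the 16 and above 0 in none. Among the 11253 genes at that level 17.5% had an interval below 0 and 23.8% above, so the 3 are near the share over all genes. Slbp, the stem-loop binding protein, had an FPKM of 17.8 in the sham and 18.4 in the irradiated library, a difference of 0.05. Npat, the coactivator of histone genes, differed by -0.11, Casp8ap2, which joins the processing complex, by -0.13, and the U7 snRNP proteins Lsm10 and Lsm11 by -0.07 and -0.20. Zfp473, which also binds the U7 particle, had an FPKM of 0.0497 and 0.0571. The 5 genes for decay of histone mRNA had a median difference of 0.02, from -0.12 in Zcchc11 to 0.16 in Lsm1.

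S phase genes gave another picture of the same cells. All 19 reached an FPKM of 1, and 3 were higher and 16 lower in the irradiated library, with a median difference of -0.14. The counting interval lay below 0 in 12 and above 0 in 1, against 17.5% and 23.8% over the 11253 genes at that level. The S phase genes had a median of 5051 fragments over both libraries, against 1929 over those 11253, so smaller differences could pass. Pcna, the sliding clamp of DNA polymerase, had an FPKM of 107 in the sham and 101 in the irradiated library. Rrm2, a subunit of ribonucleotide reductase, had 79.2 and 80.9. The largest differences were 0.11 in Rrm1 and -0.31 in Cdc6, which loads the replicative helicase. Cdkn1a, a preset gene outside the gene lists, had an FPKM of 51.2 in the sham and 124 in the irradiated library. Its difference was 1.27 (1.22 to 1.33). All 7 histone chaperone genes were lower, with a median of -0.15, from -0.08 in Hira to -0.23 in Chaf1a. Of the 11253 genes, 4947 were lower. The counting interval lay below 0 in 5 of the 7, with an upper end of -0.0003 in Asf1a, and spanned 0 in Asf1b and Hira. The median FPKM of the S phase genes was 24.2 in the sham and 21.9 in the irradiated library, where that of the clustered histone members was 0.170 and 0.164.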

How the data were processed

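Each gene has a log2(FPKM + 0.1) value per library in the table as deposited, to 2 decimals, beside its coordinates and length. The submitters' processing notes name mm10, the labels name poly(A) RNA and a stranded kit, while for the aligner and counter no source used here gives a name. FPKM and whole fragments were recovered from the deposited values. The depth was set so that low genes gave whole fragments, and all 3543 (sham) and 3495 (irradiated) low genes lay within 0.12 of a whole number. The method was tested on simulated data. Differences are irradiated minus sham deposited values. Counting intervals are exact 95% binomial intervals of the ratio of fragments. Differences, though not the intervals, understate changes of low genes. Genes passed where either library reached an FPKM of 1.

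Named members were the 5 with the highest mean FPKM of each type, those of at least 20 fragments with the largest difference in each direction, those that passed with a difference of at least 1, and the germline members. Of each gene list, the extremes and preset genes were named. The members and lists were chosen with earlier results of these data known. Alternatives changed the offset, filter, scaling, scale and members summed. Transcripts were from GENCODE M21 and promoters from RefSeq GRCm38.p6. Of the table's symbols 24022 are in RefSeq, and 18211 have the same start or end there, 57 members among them. The tools were SciPy 1.17.1, pandas 2.3.3 and numpy 2.4.6 in Python 3.11.15, with figures from matplotlib 3.10.9.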

Additional observations from a re-analysis of the deposited data

How the results depend on the processing

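No paired analysis was possible because only 1 library stood for a condition, and no replicate could be left out for the same reason. Of the summary values, 52 stayed within their spread under an alternative and 7 moved, and of the values of single genes 98 stayed and 2 moved. The summed log2 ratio of all members, 0.38, was -0.0242 without the 4 members with most fragments, an alternative chosen after seeing the data, as were those that left out rows overlapping another gene or with all windows shared. Without its most abundant member, H1 moved from 0.44 to -0.46, H2B from 0.57 to 0.32 and H4 from -0.26 to 0.0744, which follows from the share that member holds. With no filter, 5 members were higher and 6 lower by at least 1, where 0 and 0 were with it, since the filter removes 58 members. With library totals without the 100 most abundant genes, 2 members had an interval below 0 in place of 1, as every log2 ratio shifts by -0.01. As summed FPKM, H3 was -0.33 in place of 0.10, inside its counting interval, since FPKM weights short genes more. Of single genes, Col1a1 was -0.46 after centring on the median difference and Hist1h3e was -0.68 on the log2(FPKM + 1) scale. Depth limits the rest, since 51 of 63 members had fewer than 20 fragments.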
